A study of Homo sapiens with 75 samples.

Results

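Genes of the melanocyte pigment pathway were followed through 75 microarrays of 5 human cell lines. Members were 9 genes chosen by name for what they do, with earlier results of these data known: MITF, SOX10, MC1R, TYR, TYRP1, DCT, PMEL, MLANA and S100B. Of these, 8 had at least 1 probe set that the array annotation ties to that gene alone, with 15 probe sets between them, of 19775 genes and 54675 probe sets in all. DCT is not analysed here, since no probe set carried its name alone in that annotation. Where a gene had several probe sets, the one with the highest mean over the 75 arrays stands for the gene unless another is named.

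The lines are G361 (malignant melanoma), HepG2 (hepatoma), TK6 (B lymphoblastoid cells), U2OS (osteosarcoma) and BJ (skin fibroblasts). In every line, irradiated groups (a dose of 5 Gy) were labelled 3 h and 6 h, and mock-irradiated groups, called untreated here, 0 h, 3 h and 6 h, with 3 arrays a group. No transgene or drug is named in any group, and each tissue is represented by a single established line. Values are log2 signals from the robust multi-array average (RMA), so a difference of 1 is a doubling of signal and signals of different probe sets are not comparable with one another.

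Melanin is made in melanosomes, organelles related to lysosomes, from the amino acid tyrosine. Tyrosinase (TYR) carries out the first and rate-limiting oxidation, TYRP1 and dopachrome tautomerase (DCT) act on later intermediates, PMEL builds the fibrils on which pigment is laid down, and MLANA is a melanosomal membrane protein that binds PMEL. MITF is the transcription factor that governs this lineage, SOX10 is a neural crest factor that acts on the MITF gene, and MC1R is the melanocortin receptor that raises MITF through cyclic AMP. S100B is a calcium-binding protein of neural crest derivatives, used in the clinic as a marker of melanoma.

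In the GRCh38.p14 annotation of RefSeq the 9 genes are protein-coding and lie apart on the chromosomes, apart from MLANA and TYRP1, which share chromosome 9. MITF spans chr3:69739464-69968332, SOX10 chr22:37972312-37984555, MC1R chr16:89918862-89920972 and TYR chr11:89177875-89295759. TYRP1 spans chr9:12693385-12710285, MLANA chr9:5890889-5910606, DCT chr13:94436811-94549406, PMEL chr12:55954105-55966709 and S100B chr21:46598604-46605082.

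MITF binds the 6-base E-box CATGTG (also known as the core of the M-box) and the related CACGTG, and promoters of pigment genes are textbook examples of such sites. Promoter windows of 250 bases before to 50 bases after an annotated start were at hand for 6 of the 9 genes, all but PMEL, SOX10 and S100B (9 windows, RefSeq, GRCh38.p14). On either strand CATGTG was present in a window of TYR, TYRP1, MC1R and DCT, and in none of the MITF or MLANA windows. Over 35116 such windows of all genes, 11.1% held CATGTG. No matches overlapped one another. CACGTG was in 0 of the 9 windows, against 7.26% of all windows. The SOX-type letters ACAAAG and, as the other form searched, ACAATG, on either strand, were in 2 of the 3 MITF windows and in no other of the 9, against 24.5% of all. The MITF window without them was the last of the 3 along the gene, chr3:69936342-69936641. A match is a description of letters, and no binding was measured. The 250 bases before the start are shown for the measured genes with a CATGTG match, on the plus strand, which is the strand of all 3 genes, with CATGTG or its reverse complement CACATG in capitals. TYRP1 had 2 matches, beginning 144 and 11 bases before the start, TYR had 2, beginning 104 and 12 bases before it, and MC1R had 1, beginning 64 bases before it. The windows are chr9:12693135-12693384, chr11:89177625-89177874 and chr16:89918612-89918861.
TYRP1: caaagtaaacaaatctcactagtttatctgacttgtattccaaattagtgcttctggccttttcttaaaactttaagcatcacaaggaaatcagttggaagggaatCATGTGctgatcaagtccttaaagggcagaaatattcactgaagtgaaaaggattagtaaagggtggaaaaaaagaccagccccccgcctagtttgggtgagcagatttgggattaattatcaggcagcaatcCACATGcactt
TYR: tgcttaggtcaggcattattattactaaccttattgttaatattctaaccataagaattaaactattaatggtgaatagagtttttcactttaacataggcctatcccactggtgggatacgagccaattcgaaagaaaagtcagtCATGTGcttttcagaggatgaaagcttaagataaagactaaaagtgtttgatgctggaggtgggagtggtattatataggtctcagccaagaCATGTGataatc
MC1R: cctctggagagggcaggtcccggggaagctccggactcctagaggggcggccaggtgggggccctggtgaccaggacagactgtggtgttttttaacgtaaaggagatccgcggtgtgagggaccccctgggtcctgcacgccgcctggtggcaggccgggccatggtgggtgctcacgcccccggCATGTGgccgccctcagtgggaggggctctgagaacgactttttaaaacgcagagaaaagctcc

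Before the members' values, 3 features of the arrays bear on them. Array medians lay between 3.91 and 4.07, and no pair of arrays was identical. In G361, replicate 1 of all 5 groups stood apart by the GAPDH control, whose 5' minus 3' difference was -0.94 to -0.68 there and -0.03 to 0.05 in replicates 2 and 3. The mean of 10 p53 target genes, which rise after DNA damage in cells with active p53, did not follow the treatment labels in G361. Relative to the 0 h mean it was -0.04 to 0.25 on arrays labelled irradiated at 3 h against 0.11 to 1.07 on arrays labelled untreated at 3 h, and 0.66 to 1.11 against 0.07 to 1.21 at 6 h. The untreated groups were split within: replicates 1, 2 and 3 had 0.19, 0.11 and 1.07 at 3 h. At 6 h they had 1.21, 1.14 and 0.07. In HepG2 it was -0.01 to 0.17 irradiated against 0.03 to 0.42 untreated at 3 h, and 1.28 to 1.40 against 1.13 to 1.19 at 6 h. In TK6 the same mean was 1.83 to 2.06 on irradiated and -0.43 to 0.03 on untreated arrays at 3 h. Every treatment contrast in G361 below is therefore between arrays as labelled. Of 8 hepatocyte markers 1 was highest on the arrays labelled HepG2 and 4 in U2OS, and their mean was 3.70 to 3.91 and 4.23 to 4.73 there. Among the 4 in U2OS, APOB (mean 3.08) and FGB (2.94) lay under the level limit described below. The label HepG2 is kept as a name.

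The melanocyte markers read in G361 were the members themselves, so they give no check of the line apart from the first comparison below. All 8 measured members were highest in this line. Their mean was 10.62 to 10.93 over its 15 arrays and at most 4.74 on any array of the other lines. Markers of other cell types were also read. Of 10 fibroblast markers 0 were highest in G361, and their mean there was 4.14 to 4.51, against 11.16 to 11.53 in BJ. Of 8 keratinocyte markers 0 were highest in G361, and 3 of 5 Schwann cell markers were, with a mean of 5.44 to 5.77. The B lymphoid markers had 0 of 7 highest in G361 and all 7 in TK6. On arrays of whole cultures, the number of cells with a transcript and the amount per cell cannot be told apart.

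The first comparison was the level of the pigment genes in G361 against the mean of the other 4 lines, over all 5 groups of each. In limma's fit of all 75 arrays, 70.9% of 16027 genes differed at an adjusted p under 0.05, 5687 higher and 5673 lower in G361, so being called in this comparison is common. All 8 measured members were higher in G361. A stricter measure was the gap, the lowest of the 15 G361 arrays minus the highest of the 60 other arrays. The gap was above 0 for 8 of 8 members and for 3.02% of all genes, and above 4 for 5 members and for 19 genes in all. With arrays under the level limit described next set to that limit, it was above 4 for 5 members and 17 genes. Since the genes were chosen as melanocyte genes and there is 1 melanoma line, the difference between lines cannot be told apart from any other difference between G361 and the 4 lines.

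**Figure D1:**
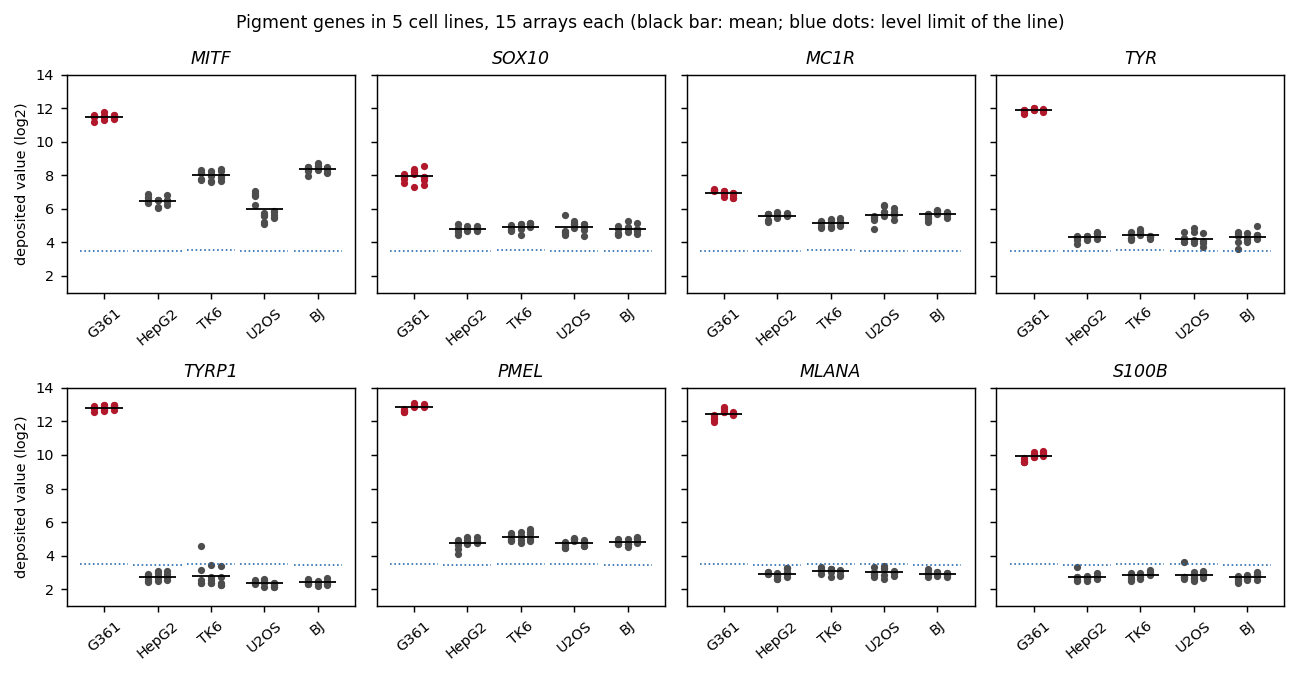
Deposited log2 values of 8 pigment genes on each of the 75 arrays, with the G361 arrays in red at the left of each panel and the other lines in grey. Bars are means of 15 arrays and dotted lines are each line's level limit, near 3.5. The G361 arrays lie above all others in every panel, by the least in MC1R and by the most in MLANA.

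The melanosomal enzymes and structural proteins had the widest separation. TYR, the rate-limiting enzyme, was 11.66 at the lowest, 11.89 at the median and 12.03 at the highest over the G361 arrays, and 3.62 to 4.95 over all others. Its difference was 7.55 log2 (SE 0.068), or 187-fold, with an adjusted p of 3.07e-70. PMEL, the fibril protein, had a lowest, median and highest value of 12.55, 12.92 and 13.08 in G361 and did not exceed 5.58 elsewhere. PMEL differed by 7.97 log2 (SE 0.065), or 251-fold. In the other 4 lines TYR and PMEL stayed above the level limit (per line, the value under which 40% of probe set means lay, 3.47 to 3.52), at means of 4.21 to 4.43 and 4.77 to 5.13. Without presence calls, it was not tested whether these low values are transcript or probe background.

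TYRP1, a relative of tyrosinase, and MLANA, the partner of PMEL, were under the level limit in all 4 other lines. TYRP1 had a lowest, median and highest value of 12.53, 12.82 and 13.004 on the G361 arrays. Elsewhere its medians were 2.37 to 2.75, and 1 TK6 array reached 4.58. The fitted difference was 10.25 log2 (SE 0.062). Counted from the limit, G361 was at least 634-fold higher than any other line. MLANA had 11.94, 12.47 and 12.85 in G361, against at most 3.40 on any other array, a fitted difference of 9.46 log2 (SE 0.065) and at least 487-fold counted from the limit. MLANA had the largest gap of all 19775 genes, 8.55 log2, TYRP1 the next at 7.95, PMEL the third at 6.97 and TYR the fifth at 6.71. Counted from the limit MLANA had 8.42 and stayed first, and TYR was the fourth.

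S100B, the calcium-binding marker, was at 9.56, 9.93 and 10.25 (lowest, median, highest) in G361 and at most 3.598 elsewhere. It was also under the limit in all 4 other lines, and G361 was at least 84.4-fold higher counted from it. Its gap of 5.96 was the seventh largest. The family did not move as a block: of 13 other S100 genes tested between the lines, 5 were higher and 8 lower in G361, with a median difference of -0.31 against -0.00 for all genes. S100A1 was higher by 3.16 and S100A10 by 1.93, while S100A4 had a difference of -4.69 and S100A2 of -3.78. S100A10 averaged 12.42 in G361, 12.55 in HepG2, 12.79 in U2OS, 11.68 in BJ and 4.94 in TK6.

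By their main probe sets, the regulators MITF and SOX10 and the receptor MC1R had smaller gaps than the 5 other members. MITF had a lowest, median and highest value of 11.18, 11.50 and 11.75 in G361. Its mean was 11.48 ± 0.14 in G361. The other means were 8.38 ± 0.20 for BJ, 7.99 ± 0.26 for TK6, 6.48 ± 0.23 for HepG2 and 5.96 ± 0.64 for U2OS (SD, n = 15 each). MITF was thus well above the level limit in all lines, and G361 was 8.62-fold over BJ, 11.3-fold over TK6, 32.1-fold over HepG2 and 46-fold over U2OS. The order of the means was G361, BJ, TK6, HepG2, U2OS. G361 did not overlap BJ and TK6 did not overlap HepG2, while BJ and TK6, and HepG2 and U2OS, overlapped in range. In U2OS the replicate 1 arrays were the highest of their group in all 5 groups, at 6.25 to 7.09, with 5.12 to 5.90 in replicates 2 and 3. Against the other lines together the MITF difference was 4.28 log2 (SE 0.095), or 19.5-fold, and its gap of 2.45 ranked 65th. MITF gave 3 readings: a second bright probe set differed by 4.27 log2. A dim one was under the limit in all 4 other lines, and G361 (mean 4.03) was at least 1.42-fold higher counted from it.

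SOX10, the factor upstream of MITF, was read by 2 probe sets. Its probe set with the higher mean over the whole series averaged 7.93 ± 0.34 in G361 and 4.78 to 4.94 in the other lines (SD, n = 15), a difference of 3.08 log2 (SE 0.078), or 8.45-fold, with a gap of 1.67 that ranked 111th. The other SOX10 probe set averaged 10.27 ± 0.21 in G361 and 3.12 to 3.25 elsewhere, under the limit in all 4 lines, so that G361 was at least 108-fold higher counted from it. On the same count, against the nearest line, the first probe set gave 7.97-fold. Both readings put every G361 array above every other array, and the gap of the other probe set was 5.72.

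MC1R, the receptor, had the smallest separation. It was at 6.62, 6.99 and 7.201 (lowest, median, highest) on the G361 arrays and reached 6.22 on a U2OS array. The difference was 1.44 log2 (SE 0.073), or 2.72-fold, with an adjusted p of 1.54e-27 and a gap of 0.40, the 336th largest. Among the other 4 lines the means were 5.14 to 5.66 and neighbouring lines overlapped. Apart from the step of MITF between TK6 and HepG2 (1.51 log2), neighbouring lines below G361 overlapped in range for all 8 members.

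Other probe sets of TYR and MLANA were under the limit in all 4 other lines, so that only bounds can be given. G361 was at least 81.1-fold higher counted from the limit on a second bright TYR probe set, 1.16-fold on a dim one (G361 mean 3.73) and 60.6-fold on the second MLANA probe set. The second S100B probe set was under the limit in every line, 2.03 to 2.43 in G361 and up to 2.53 elsewhere, and is the 1 probe set of 15 whose G361 arrays overlapped the others.

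**Figure D2:**
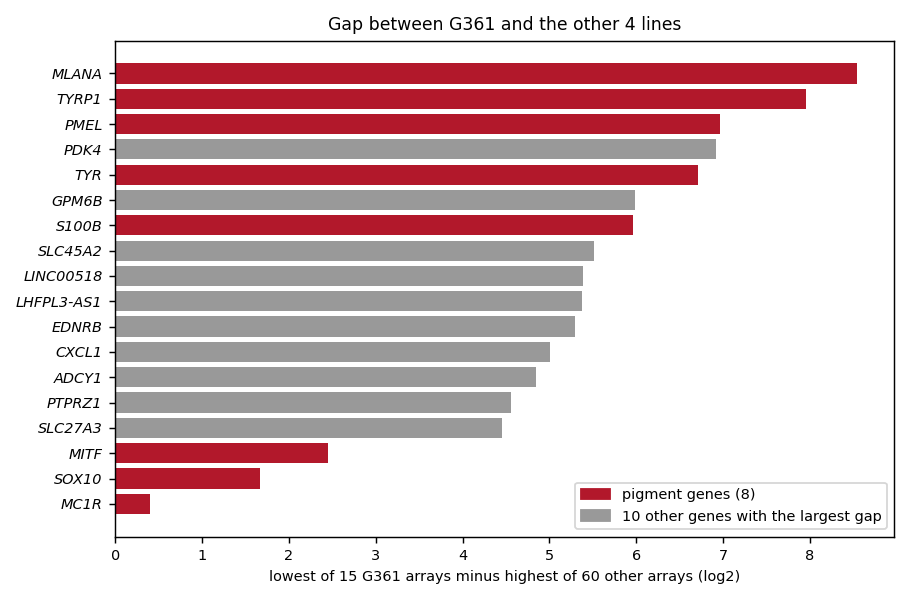
Gap between G361 and the other 4 lines, in log2 units, for the 8 measured pigment genes (red) and the 10 other genes with the largest gap (grey). A bar is the lowest of 15 G361 arrays minus the highest of 60 other arrays. Pigment genes take ranks 1 to 3, 5 and 7, and the main probe sets of MITF, SOX10 and MC1R lie below all 10 other genes. The other SOX10 probe set, not drawn, had a gap of 5.72.

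The 10 other genes with the largest gaps had values from 4.45 to 6.92 log2. PDK4, a kinase that inhibits the pyruvate dehydrogenase complex, had 6.92, or 6.36 counted from the level limit, against 6.71 for TYR on either count. Next came GPM6B, a neural membrane glycoprotein, at 5.99, and SLC45A2, a melanosomal transporter mutated in albinism, at 5.51. EDNRB, the endothelin receptor of the neural crest, had 5.30, and CXCL1, a chemokine first isolated from melanoma cells, 5.00. LINC00518 and LHFPL3-AS1, noncoding RNAs, had 5.39 and 5.38. ADCY1, an adenylyl cyclase, PTPRZ1, a receptor phosphatase, and SLC27A3, a fatty acid transport family member, followed with 4.85, 4.56 and 4.45. Counted from the limit the 10 genes had 3.97 to 6.36. Over the 25 group means these 10 correlated with the mean of the members at 0.971 to 0.999, which largely restates that they too separate 1 line from 4.

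Other genes of melanosome biology were more often higher than lower in G361. Differences are from the mean of the 4 other lines, so a single line may lie near or above G361. Among channels, carriers and membrane proteins of the melanosome, 9 of 12 tested were higher and 3 lower, with a median difference of 0.92 log2 (all genes, -0.00). SLC45A2 differed by 6.68, GPR143, the receptor of ocular albinism, by 5.38, OCA2, a melanosomal chloride channel, by 5.16, and GPNMB, a relative of PMEL, by 4.47. LAMP1, a general lysosomal protein, had -0.18 and SLC7A11, the cystine carrier, -0.61. Of 8 genes for melanosome transport, 7 were higher and 0 lower, with a median of 1.78. RAB38 differed by 5.97, MLPH, the linker between RAB27A and myosin Va, by 4.97, MREG by 2.41 and RAB32 by 2.17. RAB32 averaged 9.86 in G361, 8.74 to 9.14 in HepG2, U2OS and BJ, and 4.06 in TK6. MYO5A, the myosin itself, was the 1 gene not called, at 0.04.

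Complexes that build lysosome-related organelles showed small differences: 13 of 19 tested genes were higher and 4 lower, with a median of 0.39. LYST, mutated in Chediak-Higashi syndrome, led with 2.13, then HPS3 with 1.48 and HPS5 with 1.26, of Hermansky-Pudlak syndrome. HPS1 had -0.47 and the BLOC-1 subunit BLOC1S4 -0.35.

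Of 14 other regulators tested, 7 were higher and 6 lower, with a median of 0.98. LEF1, the Wnt effector, differed by 4.28, SNAI2 by 3.94, TFAP2A by 3.61 and ZEB2 by 3.26. TFAP2A averaged 10.35 in G361 and 9.80 in BJ. The relatives of MITF went the other way, with TFEB at -1.58 and TFE3 at -1.28. Of 8 receptors and ligands, 2 were higher and 3 lower: ERBB3 differed by 6.62 and EDNRB by 6.34, while the ligands NRG1 and EDN1 had -2.63 and -2.33. The median of that list was -0.02.

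Other genes reported as MITF targets had 15 of 17 higher and 1 lower in G361, with a median of 2.84. GPM6B differed by 7.71, the calpain CAPN3 by 5.84, the BCL2 relative BCL2A1 by 4.79 and the sialyltransferase ST3GAL6 by 4.69. BCL2A1 averaged 10.22 in G361 and 9.80 in TK6, with a gap of -0.45. CDKN2A, the p16 and ARF locus, was the lower one at -1.08. Genes described in dedifferentiated, pigment-poor melanoma had 3 of 9 higher and 5 lower, with a median of -2.65. EGFR had -3.63 and CD274 -3.31, while NGFR had 1.45 and FOSL1 1.36. Fitted differences of listed genes that lie under the limit in other lines, such as EDNRB (mean 2.75 there), have no exact size. The lists were chosen with results of these data known, and their counts stand beside the 70.9% of all genes called.

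The second comparison was whether the pigment genes in G361 moved with treatment or time. No member was called in any contrast. Among all 14487 genes past the level limit in G361 the count was also 0 in every contrast, that is 0% for irradiated against untreated at 3 h, at 6 h, for untreated 3 h and 6 h against 0 h, and for the F test of any difference among the 5 groups. Unadjusted p under 0.05 in limma was reached by 106, 226, 291, 282 and 202 genes in these 5 tests. Each count is below a share of 0.05 of the genes tested, the share looked for with no difference at all. This fit was thus conservative, and 0 calls do not show that the members are stable. All 8 members were past the limit. A count of 0 members is thus read against 0% of all genes, and the intervals give what sizes this fit allows. Replicate number is not in the fit, so the spread between replicates stays in its standard errors and intervals. Blocking on replicate number changed no call of a member.

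The 95% intervals of the 8 members lay within -0.52 to 0.63 log2 for irradiated minus untreated at 3 h and within -0.89 to 0.49 at 6 h. For untreated 3 h minus 0 h they lay within -0.83 to 0.49, and for 6 h minus 0 h within -0.68 to 0.42. Standard errors were 0.10 for TYR and MITF and up to 0.22 for SOX10. The median size of the members' differences was 0.08, 0.06, 0.07 and 0.09 log2 in these 4 contrasts, beside 0.07, 0.09, 0.10 and 0.10 for all genes.

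**Figure D3:**
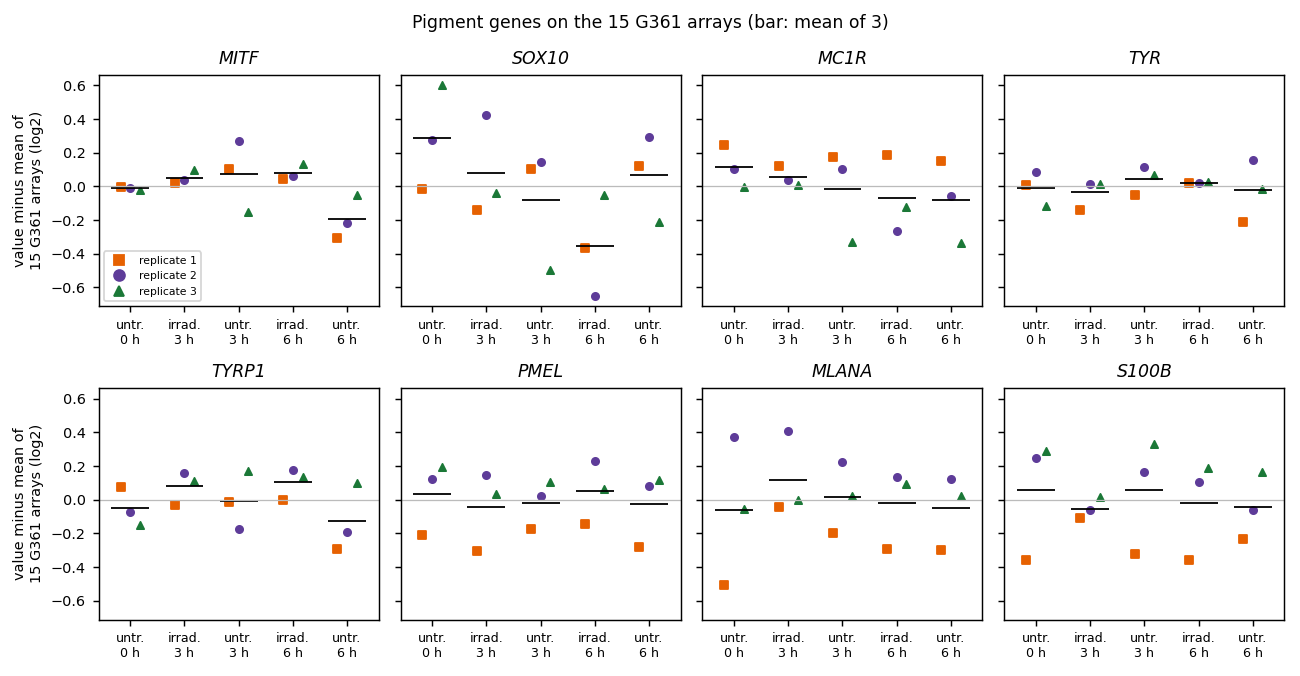
Value of each pigment gene on each of the 15 G361 arrays minus the gene's mean over them, in log2 units, by group as labelled. Symbols and colours give the replicate number and bars the means of 3 arrays. Replicate 1 (squares) lies lowest in all 5 groups for PMEL, MLANA and S100B and highest in all 5 for MC1R.

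TYR had an SD of 0.10 log2 over the 15 G361 arrays, the lowest of the 8 main probe sets, and 0.25 on its second bright probe set. It read 11.73, 11.89 and 11.89 on the arrays labelled irradiated at 3 h, against 11.82, 11.99 and 11.94 on those labelled untreated. At 6 h it read 11.89, 11.89 and 11.90 on irradiated against 11.66, 12.03 and 11.86 on untreated arrays. The groups overlapped at both times, and the differences were -0.08 (SE 0.10) at 3 h and 0.04 (SE 0.10) at 6 h. TYRP1 read 12.80, 12.98 and 12.94 irradiated against 12.81, 12.65 and 12.998 untreated at 3 h. At 6 h it read 12.82, 13.004 and 12.96 irradiated against 12.53, 12.64 and 12.92 untreated. Both pairs of groups overlapped, and the 6 h difference was 0.23 (SE 0.11, 95% interval -0.01 to 0.47, adjusted p 0.9999).

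MITF was the 1 member whose groups did not overlap at 6 h. It read 11.53, 11.55 and 11.62 on arrays labelled irradiated against 11.18, 11.27 and 11.43 on those labelled untreated, a difference of 0.27 (SE 0.10, 95% interval 0.05 to 0.49). The adjusted p was 0.9999 in limma's fit. Groups that do not overlap were found for 5.96% of all genes in this contrast, 1 member of 8, and for 4.2% at 3 h, 0 members. The untreated 6 h arrays were also below all 3 untreated 0 h arrays (11.48, 11.47 and 11.46), with a difference of -0.18 (SE 0.10), in a contrast where 3.92% of genes did not overlap. In the 3 h against 0 h contrast 4.43% of genes and 0 members did so. The separation rests on 1 probe set: the other bright MITF probe set differed by 0.03 (SE 0.12) at 6 h and by -0.11 (SE 0.12) at 3 h. At 3 h the difference of the main probe set was -0.02 (SE 0.10). The p53 target mean was 1.21, 1.14 and 0.07 on the untreated 6 h arrays (MITF 11.18, 11.27 and 11.43). It was 0.76, 1.11 and 0.66 on the irradiated 6 h arrays. The untreated 3 h array with the lowest MITF, 11.33, had 1.07. Arrays labelled untreated were thus mixed in this mean, and the part of this in the MITF difference was not tested.

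SOX10 had an SD of 0.34 over the 15 arrays, the highest of the 8 main probe sets, and 0.21 on its other probe set. It read 7.57, 7.28 and 7.88 on irradiated arrays against 8.05, 8.23 and 7.72 on untreated arrays at 6 h, so that the groups overlapped. The difference was -0.42 (SE 0.22, 95% interval -0.89 to 0.04), the largest size among members, and 0.16 (SE 0.22) at 3 h. Its more G361-restricted probe set differed by -0.02 (SE 0.17) at 6 h and 0.17 (SE 0.17) at 3 h. Differences of MC1R, PMEL, MLANA and S100B were -0.11 to 0.10 at 3 h and 0.01 to 0.08 at 6 h, with standard errors of 0.14 to 0.19, and their groups overlapped.

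**Figure D4:**
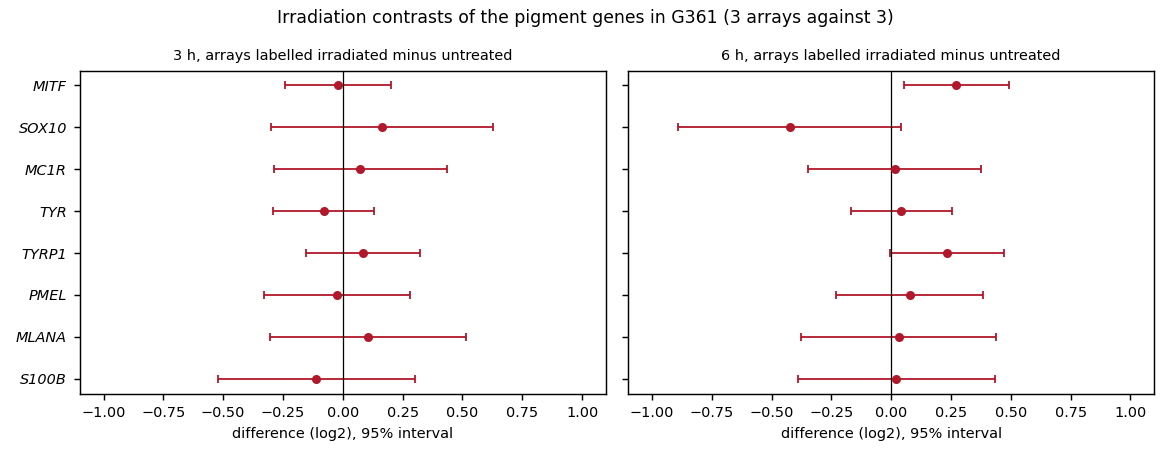
Difference between arrays labelled irradiated and untreated in G361 for 8 pigment genes, in log2 units, at 3 h (left) and 6 h (right). Points are differences of means of 3 arrays each and lines are 95% intervals from the fit of 15 arrays. All intervals include 0 at 3 h, and at 6 h all but that of MITF (0.05 to 0.49).

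Lists around the members gave the same count. In each of the 8 lists of melanosome, regulator, receptor, MITF target, dedifferentiation and S100 genes, 0 genes were called in any of the 4 G361 contrasts or in the F test. Their medians were -0.00 to 0.12 log2 for irradiated minus untreated at 3 h and -0.06 to 0.21 at 6 h. The p53 targets, also with 0 of 10 called, had medians of -0.39 at 3 h and 0.10 at 6 h.

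Within G361, replicate number took a larger share of the spread than group did for 5 members. Its share of the sum of squares over the 15 arrays was 86.4% for PMEL, 78.0% for MLANA and 76.8% for S100B, against a median of 37.7% over all genes. For MC1R it was 56.1%, for TYR 44.9%, for TYRP1 13.8%, for SOX10 4.45% and for MITF 2.95%. PMEL, MLANA and S100B were lower in replicate 1 than in the mean of replicates 2 and 3 in 5 of 5 groups, by means of -0.33, -0.40 and -0.41 log2. Over all genes, 13.1% were lower in 5 of 5 groups and 27.3% higher. MC1R was higher in replicate 1 in 5 of 5 groups, by a mean of 0.26.

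Probe sets of the same gene differed in the size of this shift and, for SOX10, in its direction. The second bright TYR probe set was lower in replicate 1 in 5 of 5 groups, by a mean of -0.44, and the main TYR probe set in 4 of 5, by -0.11. The second MLANA probe set was lower in 4 of 5 groups, with a mean of -0.07, against -0.40 for the main MLANA probe set. The more G361-restricted SOX10 probe set was higher in replicate 1 in 5 of 5 groups, by 0.29, and the main SOX10 probe set averaged -0.09. These are the same 5 arrays whose GAPDH 5' minus 3' difference was low, and the part of RNA quality in these values was not tested. After the group means were removed, PMEL and MLANA correlated at 0.78 over the 15 arrays, PMEL and S100B at 0.78, and MLANA and S100B at 0.72, the highest of 28 pairs. The lowest were MC1R with S100B at -0.82 and with PMEL at -0.77. The 15 points share 3 replicate numbers, so these values restate the split by replicate.

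The third comparison was irradiation in the lines without the pigment lineage. In each of them 5 members (MITF, SOX10, MC1R, TYR and PMEL) were past the level limit and were tested. In HepG2 0 members were called at 3 h or 6 h, beside 0% and 0.00696% of all genes (0 and 1 gene in limma, with 809 and 917 genes at an unadjusted p under 0.05). In U2OS 0 members were called, beside 0.0887% and 0.641%, and in BJ 0, beside 0.18% and 0.235%. In TK6 3.99% of 14227 genes were called at 3 h and 6.23% at 6 h, and MITF was among them at both times.

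MITF was lower after irradiation in TK6. At 3 h it read 7.73, 7.59 and 7.68 on irradiated arrays against 8.31, 8.24 and 8.38 on untreated arrays. At 6 h it read 7.78, 7.64 and 7.85 on irradiated against 8.16, 8.07 and 8.25 on untreated arrays. The groups did not overlap at either time, and the untreated 0 h arrays, at 8.19, 7.94 and 7.98, were above all irradiated ones too. MITF fell by 0.65 log2 at 3 h (SE 0.11, adjusted p 7.47e-04) and by 0.40 at 6 h (SE 0.11, adjusted p 0.0276), in limma with 3 arrays per group. MITF has isoforms from several starts, expressed in lymphoid and other cells as well as in melanocytes, and the probe sets were not assigned to isoforms here.

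The 3 h fall was called with a second probe set of MITF as well (-0.74, SE 0.15, adjusted p 0.00913). At 6 h that probe set differed by -0.41 (SE 0.15) with an adjusted p of 0.187. Without replicate 3 of every group the 3 h call was lost (-0.62, adjusted p 0.0901), and without single arrays the 3 h adjusted p was 0.00185 to 0.00723. The 6 h call was lost without untreated replicate 1 (adjusted p 0.066) or 3 (0.139) or irradiated replicate 1 (0.0714) or 2 (0.133).

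**Figure D5:**
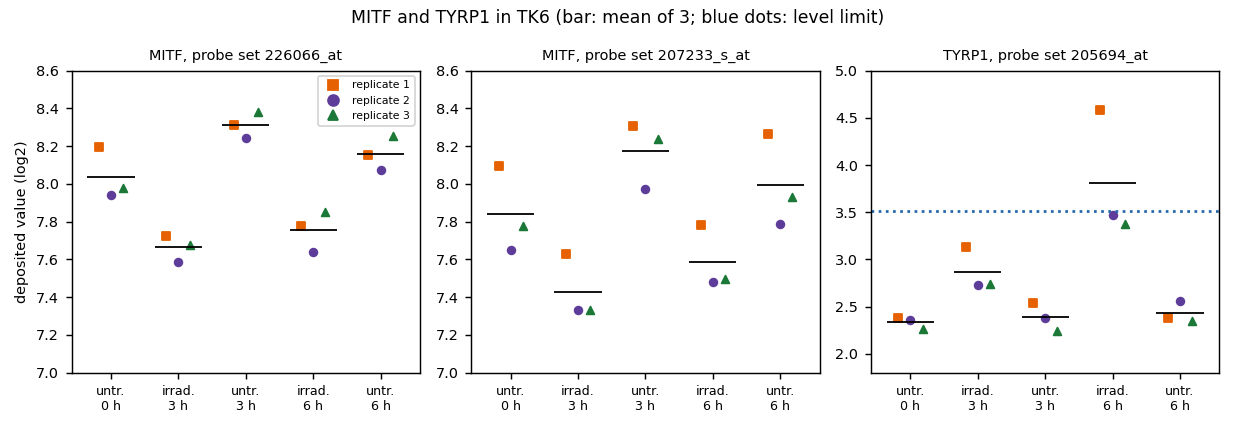
Deposited log2 values in TK6 of both bright MITF probe sets and of TYRP1, on each array, by group; axes do not start at 0. Symbols give the replicate number, bars the means of 3 arrays and the dotted line the level limit of 3.52. Both MITF probe sets have lower means on irradiated than on untreated arrays at 3 h and 6 h, and TYRP1 lies above the limit on 1 array labelled irradiated at 6 h, at 4.58.

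TYRP1 in TK6 lay under the level limit and was left out of that test. It read 3.13, 2.73 and 2.74 on irradiated arrays against 2.54, 2.38 and 2.24 on untreated arrays at 3 h. At 6 h it read 4.58, 3.47 and 3.37 on irradiated against 2.38, 2.55 and 2.35 on untreated arrays. All 6 arrays at 3 h and 5 of 6 at 6 h were under the limit of 3.52. The exception was irradiated replicate 1 at 6 h, and the lowest G361 array had 12.53. The limit was applied to the mean of all TK6 arrays, 2.77, while the irradiated 6 h mean was 3.81. With no level filter TYRP1 was called at 6 h (limma adjusted p 4.12e-04, beside 4.19% of 19775 genes). Since the untreated arrays lay under the limit, the difference has no exact size and is not given. PMEL in TK6, tested and not called, had 0.39 (SE 0.20) at 6 h.

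The difference between lines was tested directly. The irradiation effect in G361 minus its mean in the other 4 lines was called for 0 members, beside 0.137% of genes at 3 h and 0.0811% at 6 h (22 and 13 genes in limma). For MITF this difference was 0.23 (SE 0.30) at 3 h and 0.57 (SE 0.30, adjusted p 0.9998) at 6 h. Against TK6 alone the 6 h difference of MITF effects was 0.68 (SE 0.38, 95% interval -0.09 to 1.44, adjusted p 0.822), a contrast in which 1.34% of genes passed. Blocking on replicate number gave an adjusted p of 0.0241. Against HepG2 alone it was 0.51 (SE 0.38, adjusted p 0.999), with 0% of genes called. These values use the G361 and HepG2 arrays as labelled.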

How the data were processed

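The deposited values are log2 signals per probe set on 75 single-sample Affymetrix arrays, made by the authors with RMA (submitters' processing notes). Its version, and whether all arrays entered 1 RMA run, were not stated in the labels. Per the labels, biotin-labelled cRNA came from total RNA, and controls were mock-irradiated. Nothing in the labels ties replicates to separate cultures. P-values therefore cover only the spread between these arrays, whose number limits the precision. All 75 arrays were used as labelled.

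Probe sets with 1 gene symbol in the annotation table (41097) were used, 1801 with several and 11777 unnamed were left out, and symbols were updated by gene identifier (41043 matched, 0 changed). A gene was represented by its probe set with the highest mean. For each line a model of 5 group means was fitted to 15 arrays, leaving 10 residual degrees of freedom. Fits used limma 3.58.1 under R 4.3.3 (lmFit, eBayes with trend). Tested genes had a mean in the line above that of 40% of probe sets. Lines were compared in 1 fit of 75 arrays, for 16027 genes past that limit in at least 1 line. Called, rose or fell means a Benjamini-Hochberg adjusted p under 0.05 across every gene tested. The fits were tested on simulated data with independent arrays, which do not hold the spread shared by arrays of the same replicate number.

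Members, gene lists, marker lists and tests were chosen with earlier results of these data known. Named genes were the members, up to 4 highest and 2 lowest genes of a list by difference between lines, and the 10 other genes with the largest gap. TYRP1 in TK6 and the MITF comparisons with single lines were added after their values were seen. All groups carry replicates 1 to 3. After removal of group means, arrays of the same number correlated by at least 0.279 in G361 irradiated against untreated at 3 h, 0.281 at 6 h and 0.334 in untreated 3 h against 0 h, and counted as paired (over 0.1). The lowest in untreated 6 h against 0 h was 0.0553. In TK6 the lowest were 0.178 at 3 h and 0.259 at 6 h. Alternatives were no level filter, quantile normalization, the mean of all probe sets, the replicate block, no variance trend, 1 fit of all arrays, single groups, lines, replicates and arrays left out.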

Additional observations from a re-analysis of the deposited data

Results flagged for a closer look

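Arrays of MITF at 6 h were ordered oppositely in G361 and in TK6 and HepG2, while the difference of effects did not pass the test without the replicate block. All 3 G361 arrays labelled irradiated lay above all 3 labelled untreated, and all 3 irradiated arrays lay below all 3 untreated ones in TK6 and in HepG2. This order was seen in 2 of 64 comparisons of a member between G361 and another line (3.13%, both of MITF with the same G361 arrays), beside 0.315% over all genes, lines and times. At 6 h it was seen in 0.541% of genes against TK6 and 0.238% against HepG2. The effects in G361 (0.27, limma adjusted p 0.9999) and HepG2 (-0.24, limma adjusted p 0.901) were not called. The G361 effect minus the TK6 effect was 0.68 log2 (SE 0.38, limma adjusted p 0.822, or 0.0241 with the replicate block), and minus the HepG2 effect 0.51 (SE 0.38, limma adjusted p 0.999, or 0.999 with the block). Both SEs rest on 1 spread shared by all 5 lines, and the SD of MITF was largest in U2OS, at 0.64. The second bright MITF probe set gave 0.03 in G361 at 6 h and -0.41 in TK6. The labels of G361 and HepG2 did not follow the p53 targets. The untreated 6 h arrays of G361 with the lowest MITF, 11.18 and 11.27, had a p53 target mean of 1.21 and 1.14. The third had 0.07, and the part of this in the difference was not tested.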

How the results depend on the processing

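All 8 members kept their call between G361 and the other lines in 97 of 97 alternative values. Within G361, 0 members were called in 480 of 480 alternative values (lowest limma adjusted p 0.575), of which 65 uncalled values changed sign. The replicate block changed no call of a member there. Counts over all genes moved more. Irradiated against untreated at 6 h in G361 gave 1 gene with quantile normalization and 1 with the replicate block, against 0, and 0 to 1 with replicates or single arrays left out. Untreated 6 h against 0 h gave 6 genes and the F test 21 in the fit of all 75 arrays, against 0 each, and 0 to 2 and 0 to 1 with replicates left out. The G361 effect against the other lines gave 60 genes at 3 h and 42 at 6 h with the replicate block, against 22 and 13, and 2 to 36 and 1 to 12 with replicates left out. Member calls after irradiation in the other 4 lines, 2 in number (both MITF in TK6), were 1 with the mean of all probe sets, 0 to 2 with replicates left out, and 3 with no level filter, where TYRP1 in TK6 at 6 h was added from values mostly under the limit. MITF in TK6 at 6 h was not called without any 1 of the 3 replicates (limma adjusted p 0.0636 to 0.322). The cause was not tested. The other SOX10 probe set and the single-array values of TK6 were chosen after seeing the data. It was not tested whether values under the level limit of about 3.5 are transcript or probe background, so their order is not relied on.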
